A study of Rattus norvegicus with 16 samples.

Results

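Hippocampal gene expression of injured rats given JM6 was compared with that of injured rats given PMI-006. The arrays were taken by their titles, and they are the 3 TBI+JM6 and the 3 TBI+PMI-006 arrays of the 16 in the series, each from 1 rat. All 6 were Sprague-Dawley rats, described in the study's methods as adult males, with a severe fluid percussion brain injury (traumatic brain injury, TBI), and the whole hippocampus was taken at 24 h. JM6 was given at 400 mg/kg and PMI-006 at 250 mg/kg, both by oral gavage. The doses differed, so a difference between the groups belongs to the compounds at these doses. Levels of 2 TBI+E33 (estradiol at 33 ug/kg in the methods), 3 untreated TBI, 2 Sham and 3 Naive rats are given where they help to read a value. No vehicle-treated group was analysed here, and the labels name 2 amplification kits without saying which rat had which.

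JM6 blocks kynurenine 3-monooxygenase (Kmo), an enzyme of the pathway that breaks down tryptophan through kynurenine. In the brain, kynurenine can be turned into kynurenic acid, which blocks NMDA receptors, or towards quinolinic acid, which activates them. PMI-006 is known here by its code only. The comparison therefore asks where 2 neuroprotective compounds, 1 of them with a known enzyme target, left different transcript levels in the injured hippocampus.

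The 6 rats were scanned in 1 session, on 2 slides. The first slide held TBI+PMI-006 1 to 3 and TBI+JM6 1, and the second TBI+JM6 2 and 3 with both TBI+E33 rats. The number of the 30367 probes well above background was 20259 to 22822 in TBI+PMI-006 and 22023 to 24984 in TBI+JM6 rats. Each level below is a log2 intensity relative to the 75th percentile of the probes well above background on that array, so 0 is a bright probe, and each difference is TBI+JM6 minus TBI+PMI-006 on the log2 scale. Differences were tested with limma on 22827 probes, and calls were made at p under 0.05 after Benjamini-Hochberg adjustment. limma took the spread within groups from all 16 arrays of the series, not from the 6 compared rats alone, and its p-values measure only that spread. The methods house rats in pairs without saying which shared a cage. Whole hippocampus is a mixed tissue, in which fewer cells of a type and less RNA per cell cannot be told apart.

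The tissue label was read against markers of hippocampal fields. All 12 tested genes of the CA fields were well above background in each of the 6 rats, among them Neurod6, a transcription factor of pyramidal neurons, at 1.91 to 2.70, and Fibcd1, a marker of CA1, at 0.82 to 1.31. Of the 9 tested dentate gyrus genes, C1ql2, a secreted protein of granule cells, read -1.07 to 1.17, and Prox1, their defining transcription factor, was dim at -6.41 to -4.77. limma called 0 genes of either list.

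Few probes set the hippocampi of the 2 drug groups apart, and those that did were dim. limma called 3 probes higher in TBI+JM6 (0.0131% of those tested) and 0 lower (0%). They belong to Slc43a1, which encodes a transporter of large neutral amino acids, to Mcm4, a subunit of the helicase that opens DNA for replication, and to an unnamed transcript, A_64_P073048. Before adjustment, 1889 probes (8.28%) were higher and 129 (0.565%) lower in TBI+JM6 at a limma p under 0.05. This imbalance moved with the scaling. The median difference of all probes was 0.17 with the methods' scaling and 0.00 after quantile normalization, which gave 960 probes (4.21%) higher and 682 (2.99%) lower before adjustment. Quantile normalization left 0 probes called in either direction, with a lowest limma adjusted p of 0.122. The 3 rats of each group did not overlap on 13.8% of probes in the higher and 0.876% in the lower direction, and on 6.65% and 6.07% after quantile normalization. Where each of 13868 genes was read on 1 probe, Slc43a1 was the single gene called (0.00721%), and the shares without overlap were 13.6% and 0.923%, or 5.44% and 6.64% after quantile normalization. A lack of overlap in a named gene is to be read against these shares.

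The precision of the comparison can be read from the intervals. The 95% interval of the difference lay within 2-fold in both directions for 14041 probes (61.5%) and within 4-fold for 21430 (93.9%). Its median half-width was 0.56 on the log2 scale. The 9 pairs of rats from different groups correlated at r = 0.967 to 0.985 across probes, and 6 pairs from the same group at r = 0.969 to 0.982. The closest pair of the 15 was TBI+PMI-006 3 and TBI+JM6 1, on the same slide but in different groups. Of 22576 probes measured in all 6 rats, 68 fell into 2 levels more than 8-fold apart. On 23 of these TBI+PMI-006 1 alone was high and on 10 TBI+JM6 3 alone, and 0 split the TBI+JM6 from the TBI+PMI-006 rats.

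**Figure D1:**
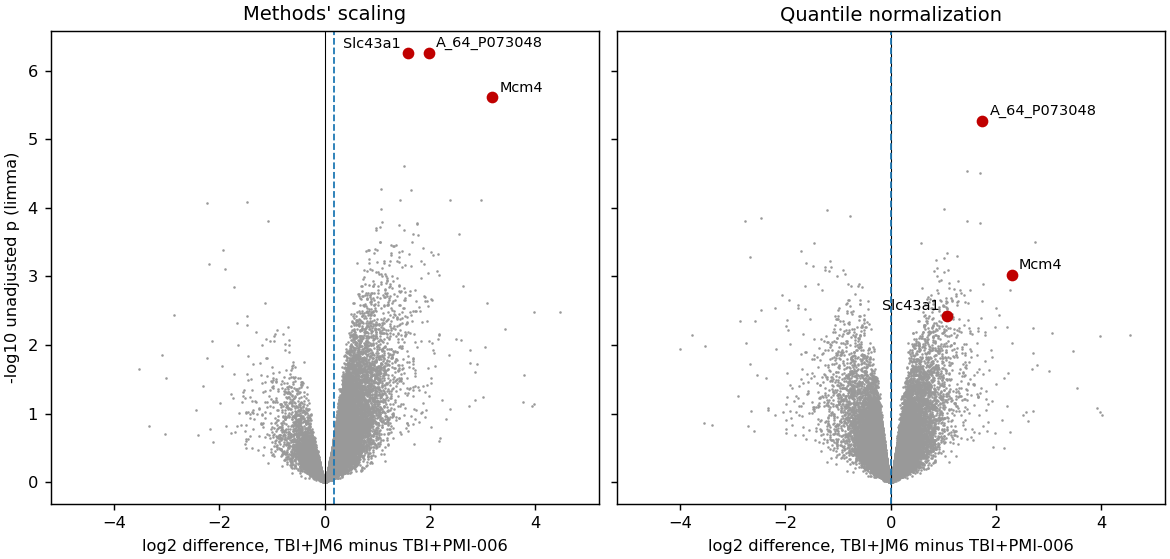
Each point is 1 of the 22827 probes tested, with its log2 difference (TBI+JM6 minus TBI+PMI-006) on the x axis and the -log10 of its unadjusted limma p on the y axis, for the methods' scaling on the left and quantile normalization on the right. The dashed line is the median of all probes, at 0.17 and 0.00, and the 3 red points are the probes called with the methods' scaling, none of which was called after quantile normalization.

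Slc43a1 levels were -6.51, -6.72 and -6.23 in the TBI+PMI-006 rats and -4.69, -4.91 and -5.09 in the TBI+JM6 rats. The groups did not overlap, and the probe (rn4 chromosome 3, 68083249 to 68083308) was well above background on 3 of 3 TBI+JM6 and 0 of 3 TBI+PMI-006 arrays. By this limit the TBI+JM6 rats had at least 2.08-fold more Slc43a1 signal, or at least 1.65-fold after quantile normalization. With the methods' scaling the measured difference was 1.59 (SE 0.17, limma adjusted p 0.00635). The limit sets the mean of the bright group against the dimmest signal still well above background on each array of the other group, or against the probe's own signal where that was higher. Such a limit, here and for the genes below, compares the measured means and carries no sampling error, which the intervals give. The TBI+E33 rats, at -5.77 and -5.90, lay between the 2 groups.

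The Mcm4 probe called (rn4 chromosome 11, 87182084 to 87182143) read -7.63, -7.59 and -7.29 in TBI+PMI-006 and -3.77, -4.43 and -4.76 in TBI+JM6 rats. All 3 TBI+PMI-006 arrays were not well above background. This puts the Mcm4 signal at least 3.11-fold higher in TBI+JM6, or at least 2.62-fold after quantile normalization. With the methods' scaling the measured difference was 3.18 (SE 0.40, limma adjusted p 0.0185). A second and brighter Mcm4 probe, A_43_P14634, differed by 0.15 with a limma adjusted p of 0.854. The 2 probes of Mcm4 thus disagreed. Among 32 tested genes of replication and proliferation, limma called 0, and the median difference was 0.07 against 0.17 for all probes.

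The last of the 3 called probes, A_64_P073048, has no gene name in the sources used here and lies on rn4 chromosome 9 from 104270477 to 104270536. It read -6.17, -6.52 and -5.69 in TBI+PMI-006 and -4.39, -4.23 and -3.83 in TBI+JM6 rats, a difference of 1.98 (SE 0.21, limma adjusted p 0.00635). Its signal was well above background on 1 of the TBI+PMI-006 arrays. The TBI+E33 rats, at -3.81 and -4.06, read like the TBI+JM6 rats.

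Part of the A_64_P073048 sequence recurs on the array. A run of 18 bases in its 60 is shared with both probes of Rpl19-ps25, a pseudogene of the ribosomal protein gene Rpl19, and with Rpl19 itself. The run stands in 7 probes of the array (0.0231%), all 7 tested. It is the stretch that all 7 share. With Rpl19 and A_64_P126595 the match to A_64_P073048 extends beyond the run on both sides, as the bases below show. These are shown as 30 bases of each probe, as deposited and 5′ to 3′, with the shared run in capitals, because several of them also split the TBI+PMI-006 rats among themselves, as described further on.
A_64_P073048, chromosome 9: atcagtCATTAAAATAAAACAAGCcttaaa
Rpl19, A_64_P029701, chromosome 10: atcagtCATTAAAATAAAACAAGCcttcgt
Rpl19-ps25, A_64_P084268, chromosome X: atcagcCATTAAAATAAAACAAGCttttgt
Rpl19-ps25, A_64_P094980, chromosome X: atcagcCATTAAAATAAAACAAGCctttgt
A_64_P126595 (RGD1562420), chromosome 6: atcagtCATTAAAATAAAACAAGCctttgt
A_64_P151473, chromosome 5: atcaatCATTAAAATAAAACAAGCctttgt
A_64_P118997, chromosome 2: atcagaCATTAAAATAAAACAAGCcttcgt
Probes that share so much sequence may share target, so their signals are uncertain as measures of single genes.

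No gene met the full rule for naming, which asked for a call under both scalings. The genes with the lowest limma p in each direction are therefore described, and apart from Slc43a1 none of them was called. Mrpl43, a protein of the mitochondrial ribosome, read -1.16, -1.30 and -0.95 in TBI+PMI-006 and 0.32, 0.06 and 0.76 in TBI+JM6 rats. These groups lay apart on a bright probe (difference 1.52, SE 0.24, limma adjusted p 0.141). The undosed Sham rats, at 0 and 0.21, read like the TBI+JM6 rats, and the untreated TBI rats read -2.19 to -1.65. Mrpl43 also followed the sample numbers described further on. Every rat numbered above 200 lay above every rat numbered 1 to 8, with TBI+PMI-006 3 the lowest of the former at -0.95. Kif5c, a kinesin heavy chain of neurons, read -3.02, -2.96 and -3.46 against -2.40, -1.90 and -1.91 (difference 1.07, SE 0.19, limma adjusted p 0.197). Dpt, the matrix protein dermatopontin, and Gcm2, a transcription factor known from the parathyroid, were well above background on no TBI+PMI-006 array. Their limma adjusted p was 0.175 each, and the bounds were at least 2.77-fold and at least 1.07-fold higher in TBI+JM6. After quantile normalization the bound of Dpt was 2.31-fold, and Gcm2 had no bound.

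In the other direction, C1qtnf9, a secreted protein of the adiponectin family, read -1.23, -1.68 and -1.99 in TBI+PMI-006 and -3.06, -2.18 and -3.04 in TBI+JM6 rats. Its groups did not overlap, and its difference of -1.13 (95% interval -1.78 to -0.48) had a limma adjusted p of 0.305. Extl2, a glycosyltransferase of the exostosin family, read -2.02, -2.21 and -2.59 against -2.95, -3.49 and -3.08 (difference -0.90, SE 0.28, limma adjusted p 0.359). C1h10orf90 differed by -0.69, and Asb16, which carries ankyrin repeats and a SOCS box, by -1.47 with 1 of 3 TBI+JM6 arrays well above background. The olfactory receptor gene Or4c109 was well above background on 3 TBI+PMI-006 and 0 TBI+JM6 arrays. This puts its mean at least 1.64-fold lower in TBI+JM6, or at least 1.85-fold after quantile normalization. The 95% interval of its measured difference of -1.30 was wider, from -2.16 to -0.43. None of these 5 passed limma after adjustment, with adjusted p from 0.305 to 0.365.

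**Figure D2:**
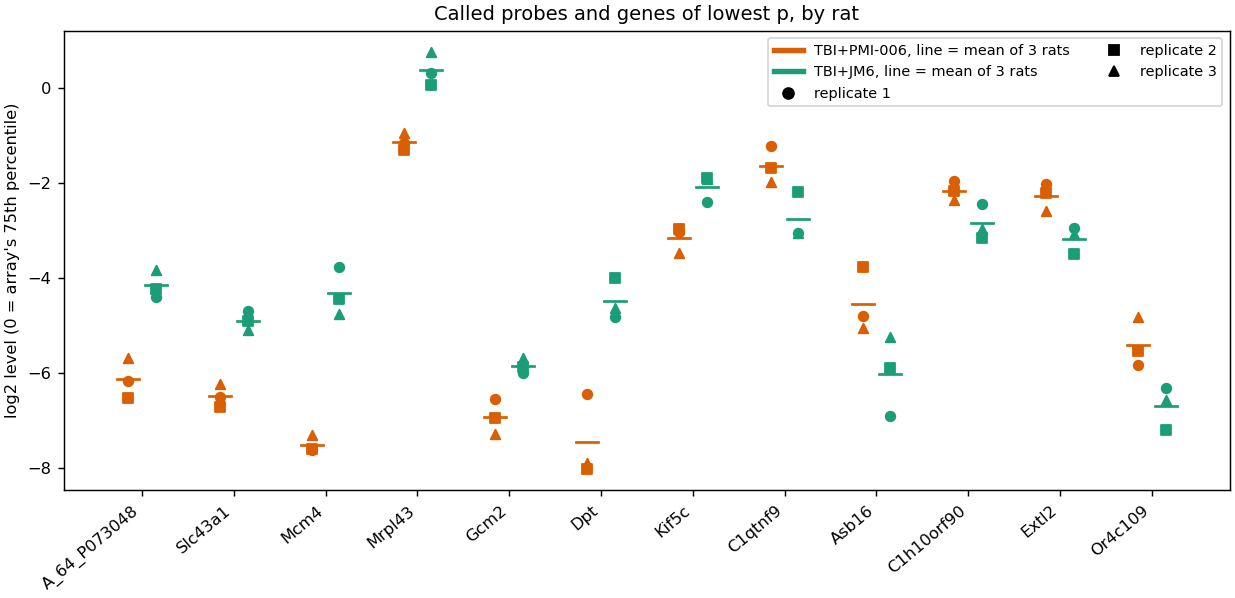
Level of each called probe and of each gene with the lowest p, on the log2 scale of the methods' scaling, with 1 symbol per rat and a line at the mean of the 3 rats of a group. In each of the 12 the TBI+PMI-006 and TBI+JM6 rats do not overlap, and Mrpl43 and Kif5c are brighter than the other genes with higher levels in TBI+JM6.

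The kynurenine pathway was read gene by gene because JM6 acts on it. Of its 13 listed genes 9 had a tested probe, and limma called 0 of them. Before adjustment 2 were higher in TBI+JM6 at p under 0.05 and 0 lower, against 7.18% and 0.548% of all 13868 genes with a tested probe. The median difference of the 9 was 0.06, or -0.14 after quantile normalization.

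Kmo, the enzyme that JM6 blocks, read -4.88, -4.10 and -6.87 in TBI+PMI-006 and -4.62, -5.49 and -5.49 in TBI+JM6 rats. The TBI+JM6 rats lay within the range of the TBI+PMI-006 rats, and the difference of 0.08 (95% interval -1.59 to 1.75) leaves room for a change of more than 2-fold either way on this dim probe. Haao, which makes the precursor of quinolinic acid, and Qprt, which removes quinolinic acid, differed by 0.06 (-0.80 to 0.93) and 0.05 (-0.68 to 0.77). The interval of Qprt lay within 2-fold and that of Kmo did not, while Haao was well above background on only 2 of 3 TBI+JM6 and 1 of 3 TBI+PMI-006 arrays.

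At the head of the pathway, Ido1 differed by -0.06 (95% interval -1.32 to 1.21), and its levels in the TBI+JM6 rats ran from -6.54 to -4.16. Ido2, a relative of Ido1, read -6.54, -6.08 and -5.49 in TBI+PMI-006 and -4.08, -3.21 and -5.38 in TBI+JM6 rats. It was not well above background on any TBI+PMI-006 array, which gives a lower limit of 3.12-fold for the excess of its mean in TBI+JM6. After quantile normalization this limit was 2.74-fold. With the methods' scaling the measured difference of Ido2 was 1.81 (95% interval 0.732 to 2.895, limma adjusted p 0.327). TBI+JM6 3 and TBI+PMI-006 3 were close to each other for Ido2.

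The aminotransferases that form kynurenic acid had narrower intervals. Kyat1 read -1.11, -1.02 and -1.04 in TBI+PMI-006 and -0.69, -0.82 and -0.56 in TBI+JM6 rats, which did not overlap (difference 0.37, 95% interval 0.02 to 0.71, limma adjusted p 0.535). Kyat3 differed by 0.24 (-0.14 to 0.62), Aadat by -0.17 (-0.63 to 0.28) and Got2 by 0.06 (-0.43 to 0.55). All 4 intervals lay within 2-fold.

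The receptors at the end of the pathway were the NMDA subunits. Of 6 tested, 0 were called by limma and 3 were higher in TBI+JM6 at an unadjusted p under 0.05 (2 after quantile normalization), against 7.18% (3.29%) of all genes. Grin2b read -4.74, -5.42 and -4.64 in TBI+PMI-006 and -3.94, -3.93 and -3.24 in TBI+JM6 rats, which did not overlap (difference 1.23, SE 0.30, limma adjusted p 0.301). Grin3b, a subunit of the glycine-binding kind, was well above background on 0 of 3 TBI+PMI-006 arrays. With the methods' scaling this gives a lower limit of 2.18-fold for its excess in TBI+JM6. Grin2c differed by 0.93 with overlapping groups. Grin1, the subunit that NMDA receptors share, differed by -0.01 (95% interval -0.54 to 0.53), Grin2a by -0.20 and Grin2d by 0.23. The median of the 6 differences, which lies between Grin2c and Grin2d, was 0.58, or 0.46 after quantile normalization. The median level over the 6 genes ran the other way after quantile normalization, at 8.120, 8.170 and 8.154 in TBI+PMI-006 and 8.118, 7.630 and 7.766 in TBI+JM6 rats, so the 2 summaries of this short list disagreed in sign.

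**Figure D3:**
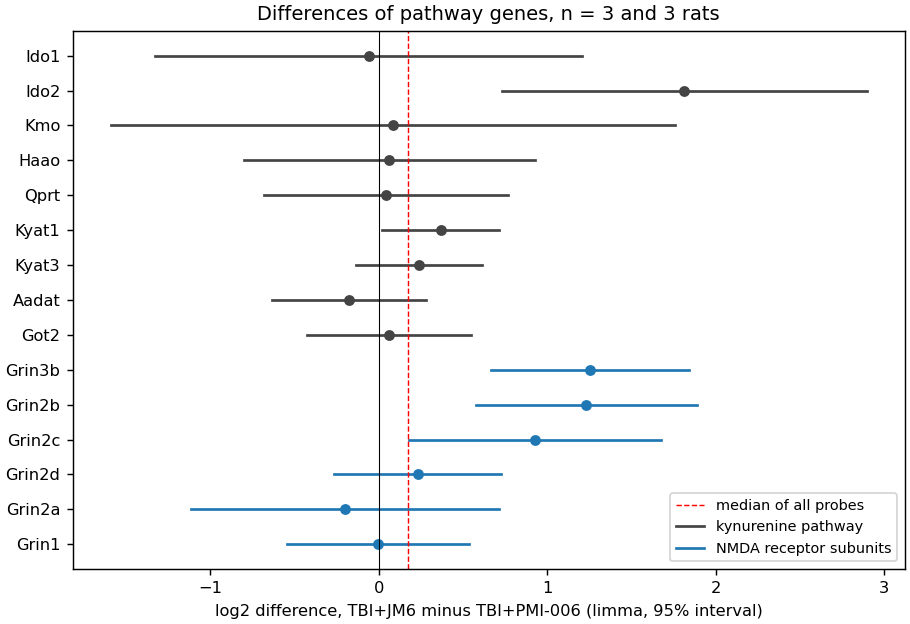
The x axis gives the log2 difference (TBI+JM6 minus TBI+PMI-006) of the 9 kynurenine genes and the 6 NMDA subunits tested, as points with their 95% limma intervals, from 3 and 3 rats. The dashed line is the median of all probes, at 0.17. Kmo has the widest interval, from -1.59 to 1.75, and Grin2b and Grin3b lie to the right of 0, the point of Grin3b being a measured difference against a group not well above background.

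Across 47 gene lists, limma called 0 listed genes on the probe chosen for each gene. After quantile normalization, 38 of the 47 list medians lay within 0.2 of 0. The chemokines and cytokines, which are raised in the injured brain, had 34 tested genes and a median difference of 0.22 (0.02 after quantile normalization). Before adjustment 1 of the 34 was higher and 0 lower, where 7.18% and 0.548% of all genes were. The chemokine Ccl4 read -4.43, -3.77 and -3.39 in TBI+PMI-006 and -3.32, -2.99 and -1.01 in TBI+JM6 rats, which did not overlap, and TBI+JM6 3 was the highest (difference 1.43, limma adjusted p 0.628). Interferon-stimulated genes had a median of -0.05 over 26, or -0.23 after quantile normalization. With the methods' scaling 6 of the 26 lay above the median of all probes. Bst2, an antiviral membrane protein, differed by 1.31 and Ifih1, a sensor of viral RNA, by -0.62.

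Glia were read on lists of their markers. Among 20 microglial genes 3 were higher in TBI+JM6 before adjustment (1 after quantile normalization), where 7.18% (3.29%) of all genes were. The median was 0.11 (-0.06 after quantile normalization), and 8 of the 20 lay above the median of all probes. Laptm5, a lysosomal membrane protein of immune cells, read -0.02, 0.31 and 0.25 in TBI+PMI-006 and 0.76, 0.70 and 0.76 in TBI+JM6 rats without overlap (difference 0.56, limma adjusted p 0.358). Differences in the list ran down to -0.94, for Fcrl2, which was lowest in TBI+JM6 3 (95% interval -2.65 to 0.76), and Aif1, the gene of Iba1, differed by 0.40 (-0.10 to 0.91). The 18 astrocyte genes had a median difference of 0.19, or 0.06 after quantile normalization, with 9 above the median of all probes. Gfap, their intermediate filament, had the largest difference of the 18, at 0.69 with overlapping groups (-0.01 to 1.39, limma adjusted p 0.57).

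Of 21 calpains and caspases, proteases of cell injury and apoptosis, 1 was higher and 1 lower before adjustment. Of all genes, 7.18% were higher and 0.548% lower. Capn3 differed by -1.35 and Casp9 by 0.45, with limma adjusted p of 0.473 and 0.54. Of 20 PI3K and Akt kinase genes 4 were higher before adjustment, where 7.18% of all genes were, and 0 after it. Akt1 read 0.20, 0.26 and 0.20 in TBI+PMI-006 against 0.40, 0.65 and 0.69 in TBI+JM6 rats (difference 0.36, limma adjusted p 0.5). After quantile normalization 0 of the 20 were higher and 2 lower before adjustment, where 3.29% and 3.27% of all genes were.

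Potassium channels gave the most genes before adjustment by count, but not by share. Shorter lists had larger shares, among them 3 of 6 NMDA subunits and 6 of the study's 24 axonal guidance genes. Of 45 tested, 8 were higher in TBI+JM6 and 0 lower at an unadjusted limma p under 0.05, where 7.18% and 0.548% of all genes passed. After quantile normalization 6 were higher and 1 lower, where 3.29% and 3.27% of all genes passed. The median difference was 0.30, or 0.15 after quantile normalization, against 0.17 and 0.00 for all probes. Kcnd3, a channel of fast transient currents, read -4.91, -3.86 and -3.60 in TBI+PMI-006 and -3.55, -2.72 and -2.59 in TBI+JM6 rats (difference 1.17, limma adjusted p 0.366). Kcnj4, an inward rectifier, differed by 0.79 and the voltage-gated Kcna5 by 0.76, both without overlap. On the slide that held both groups the list median was 0.14, where TBI+JM6 is 1 rat.

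In 4 of 47 lists the median level of every TBI+JM6 rat lay above that of every TBI+PMI-006 rat under both scalings: potassium channels, the 24 axonal guidance genes that the study drew on, infiltrating leukocytes and cortex layers. With the methods' scaling alone there were 5 such lists, beside 13.6% of single genes, and after quantile normalization 4, beside 5.44%. The axonal guidance genes were chosen by the study on these rats, so they are no independent evidence of a direction. Their median difference was 0.37, or 0.13 after quantile normalization and 0.17 without TBI+JM6 3. Before adjustment 6 of 24 were higher and 0 lower, led by Gnb2, a G protein subunit (0.55), and the signalling ligand Wnt7b (0.98). Of all genes, 7.18% were higher and 0.548% lower. After quantile normalization the counts were 4 and 2, where 3.29% and 3.27% of all genes passed. The median of the cortex genes was 0.42, or 0.14 after quantile normalization, and that of the leukocyte genes 0.43, or 0.29. After quantile normalization the nearest rats between the groups had leukocyte medians of 6.304 and 6.342, and cortex medians of 7.095 and 7.121. Summed levels overlapped for both: 11.6, 18.8 and 12.3 in TBI+PMI-006 and 18.1, 17.5 and 18.5 in TBI+JM6 rats for 19 leukocyte genes. Those of cortex layers were 2.35, 2.35 and 1.75 against 2.28, 2.97 and 3.3. The sums of potassium channels overlapped too, and those of axonal guidance did not. On the shared slide the list medians were 0.09 for axonal guidance, 0.03 for cortex layers and 0.27 for leukocytes. Among 20 leukocyte genes, Cd8a, the co-receptor of cytotoxic T cells, read -7.93, -4.29 and -2.91 in TBI+PMI-006 and -2.15, -1.28 and -3.05 in TBI+JM6 rats, which overlapped (difference 2.88, limma adjusted p 0.473).

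Genes of metabolism gave a few members before adjustment and none after it. Of 27 genes of hypoxia and glycolysis 3 were higher (2 after quantile normalization), where 7.18% (3.29%) of all genes were, among them Hk1, the hexokinase of brain, at 0.86, 0.86 and 0.82 against 1.02, 1.51 and 1.53 (difference 0.51, limma adjusted p 0.47).

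Sc5d, which makes a late double bond in cholesterol synthesis, read -0.42, -0.51 and 0.02 in TBI+PMI-006 and 0.41, 0.70 and 0.78 in TBI+JM6 rats. The groups did not overlap (difference 0.94, SE 0.20, limma adjusted p 0.239). Of 22 genes of cholesterol synthesis and uptake 2 were higher before adjustment, a share near the 7.18% of all genes. Tap2, a peptide transporter of antigen presentation, read -3.23, -3.84 and -2.62 against -2.05, -1.74 and -1.87 (difference 1.35, limma adjusted p 0.368), while Cd74, the invariant chain of MHC class II, differed by -0.64 with TBI+PMI-006 2 highest at 3.07.

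Large housekeeping lists had medians near that of all probes. The 59 cytosolic ribosomal proteins had a median difference of 0.13, or 0.02 after quantile normalization, and 0 passed before adjustment. The 64 respiratory chain genes had a median of 0.08, or -0.05 after quantile normalization. Of 18 neuron markers 1 was higher before adjustment, the neurofilament gene Nefm, where 7.18% of all genes were. Nefm read 0.45, 0.76 and 0.73 in TBI+PMI-006 and 0.85, 1.29 and 1.71 in TBI+JM6 rats (difference 0.64, limma adjusted p 0.443).

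Interneuron genes held 4 higher and 1 lower before adjustment among 19, where 7.18% and 0.548% of all genes passed, and 3 and 1 after quantile normalization, where 3.29% and 3.27% did. Somatostatin (Sst), a peptide of inhibitory neurons, read -1.48, -1.22 and -1.001 in TBI+PMI-006 and -0.82, 0.46 and 0.12 in TBI+JM6 rats without overlap (difference 1.15, SE 0.29, limma adjusted p 0.301). The serotonin receptor subunit Htr3a differed by 1.25 and the neuropeptide gene Tac3 by -0.98. Thalamus genes, which whole hippocampus should hold little of, had a median difference of 0.33 over 10 genes, or 0.16 after quantile normalization. With the methods' scaling 6 of the 10 lay above the median of all probes, 0.17. The summed level of the 10 thalamus genes was 1.26 to 1.75 in TBI+PMI-006 and 1.38 to 2.09 in TBI+JM6 rats. The part of thalamus signal in the interneuron values was not tested.

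Beyond the groups, single rats stood out by whole families of genes. TBI+JM6 3 had the highest level of 24 of 26 immediate early genes, which neurons switch on within minutes of activity, and it and TBI+PMI-006 1 were the top pair for 25 of 26. Fos read 0.76, -1.71 and -2.60 in TBI+PMI-006 and -2.13, -1.78 and 3.03 in TBI+JM6 rats, and Arc, whose product acts at synapses, read 3.05, -0.40 and -0.79 against -0.35, 0.05 and 4.57. Npas4, an activity-dependent transcription factor, read 1.62 in TBI+JM6 3 and -6.91 to -2.90 in the other 5 rats. Fos, Arc and Npas4 were picked out after their values were seen. The list's median difference of 0.34 turned to -0.43 without TBI+JM6 3 and was 1.21 without TBI+PMI-006 1.

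TBI+PMI-006 1 stood out by the choroid plexus, the tissue that makes cerebrospinal fluid beside the hippocampus. Of 20 listed markers 14 were tested, 13 of them highest in this rat. Their summed level was 175 in TBI+PMI-006 1, 11.6 and 3.62 in the other 2 TBI+PMI-006 rats and 2.69 to 5.47 in TBI+JM6 rats. Ttr, the transthyretin gene, read 7.19, 2.88 and -2.55 in TBI+PMI-006 and 0.76, -1.31 and -1.91 in TBI+JM6 rats. Folr1, a folate receptor, read 1.41 in TBI+PMI-006 1 and -4.15 to -3.04 in the other 5 rats. The median difference of the list was -1.35, and -0.06 without TBI+PMI-006 1 (limma called 0 of the 14). Markers of pericytes and meninges were also highest in this rat for 15 of 19 genes, and those of red blood cells for 5 of 5.

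Genes of the cilia of ependymal cells, which line the ventricles, went the same way with a smaller spread. The median level over 11 genes was lower in each TBI+JM6 rat than in any TBI+PMI-006 rat under both scalings. The median difference was -0.56, -0.77 after quantile normalization and -0.28 without TBI+PMI-006 1. Rsph4a, of the radial spokes, read -2.45, -4.06 and -4.53 in TBI+PMI-006 and -4.59, -5.199 and -4.81 in TBI+JM6 rats (difference -1.19, limma adjusted p 0.663), while Foxj1, the regulator of motile cilia, differed by 0.07. Before adjustment 0 of the 11 were lower, or 4 after quantile normalization, where 0.548% and 3.27% of all genes were. With a normexp background correction the list median was 0.14, above 0 but below the 0.54 of all probes under that correction. The part that choroid plexus signal played in these values was not tested.

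**Figure D4:**
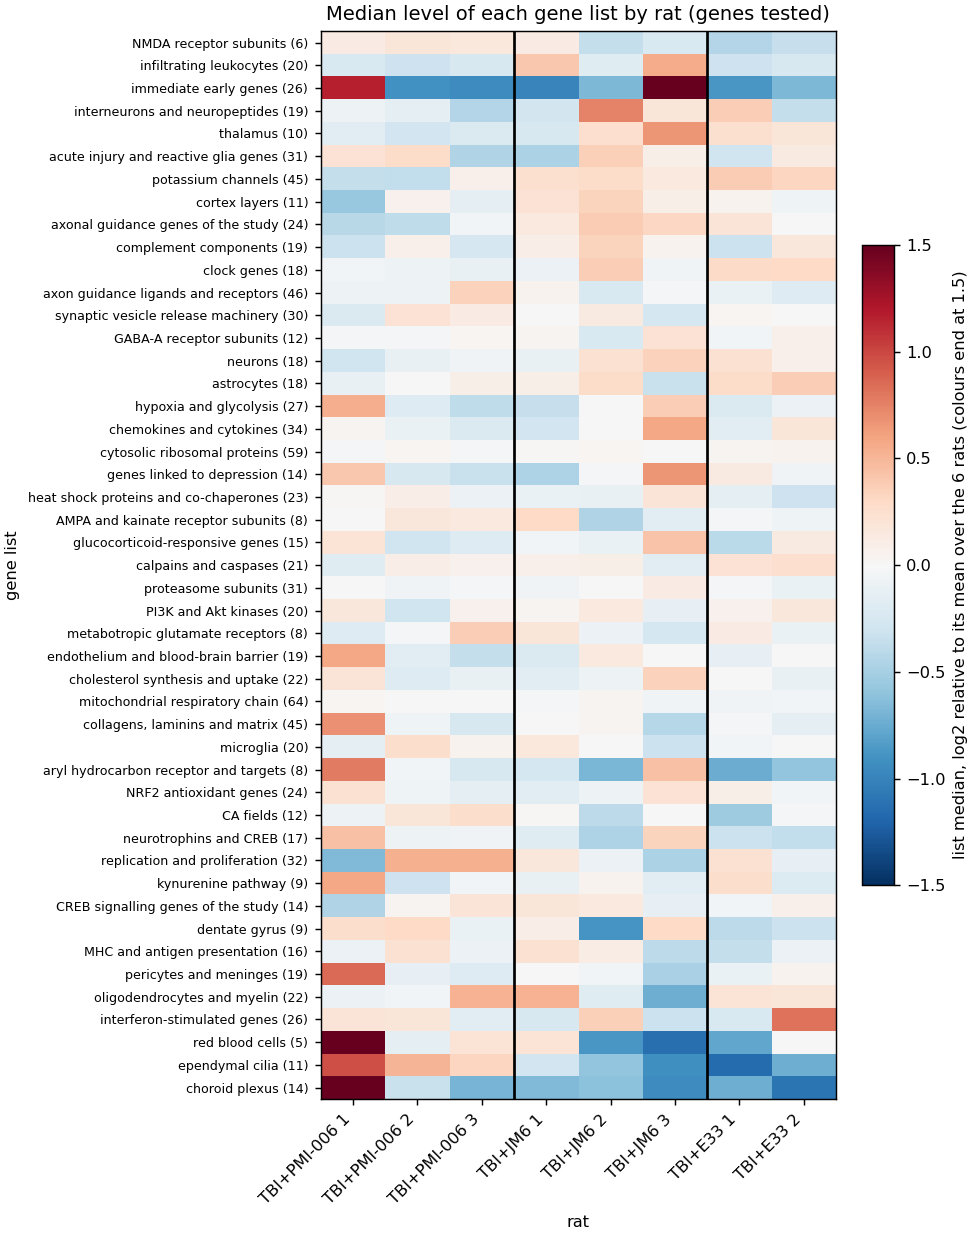
Rows are the 47 gene lists with the number of genes tested, ordered by their quantile-normalized median difference, and columns are the 8 drug-treated rats. Colour gives the median level of the list in that rat, on the log2 scale after quantile normalization and relative to its mean over the 6 TBI+JM6 and TBI+PMI-006 rats. Colours end at 1.5. The strongest are in single rats, for choroid plexus and red blood cells in TBI+PMI-006 1 and for immediate early genes in TBI+JM6 3 and TBI+PMI-006 1.

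Another division ran through the TBI+PMI-006 group. Each deposited array carries a sample number, whose meaning is not stated: 7 and 8 for TBI+PMI-006 1 and 2, and a number above 200 for TBI+PMI-006 3 and the TBI+JM6 rats. Over the whole series the numbers fall into a run from 1 to 8 and another from 230 upwards, with 8 rats in each. For 6 probes all rats measured in 1 run were more than 4-fold above all rats of the other, whatever their treatment. These probes were picked out after their values were seen.

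Rpl19-ps25 (probe A_64_P094980, rn4 chromosome X, 93594337 to 93594396) read -3.06 and -3.07 in TBI+PMI-006 1 and 2 but 3.40 in TBI+PMI-006 3, beside 3.60, 3.77 and 3.29 in the TBI+JM6 rats. The Sham rats, numbered above 200, read 2.47 and 2.97, and the TBI rats, numbered 4 to 6, read -4.28, -4.05 and -4.05. The second Rpl19-ps25 probe, A_64_P126595 and A_64_P151473, which hold the shared run shown above, and A_64_P029607 split the rats the same way.

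Vegfb, a growth factor of the VEGF family, went the other way on its probe A_64_P149280 (rn4 chromosome 1, 209657830 to 209657889). It read -1.30 and -1.35 in TBI+PMI-006 1 and 2, -7.54 in TBI+PMI-006 3 and -6.69, -7.35 and -5.17 in TBI+JM6 rats. The place of TBI+PMI-006 3 beside the TBI+JM6 rats on these 6 probes follows from how they were chosen. Rpl19 itself, on A_64_P029701, read 5.38, 5.47 and 3.21 in TBI+PMI-006 and 3.27, 3.89 and 5.15 in TBI+JM6 rats. It ran opposite to its pseudogene and followed the numbers apart from TBI+JM6 3. Rats numbered 1 to 8 read 5.09 to 5.69, and the others numbered above 200 read 2.48 to 4.75.

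Of the 6 rats left out in turn, the same one moved the count of calls most. Without TBI+PMI-006 3, limma called 37 probes higher and 7 lower, and 66 and 15 after quantile normalization. All TBI+JM6 rats carry numbers of the higher run, and no group of the series but TBI+PMI-006 holds rats of both runs. The compound and the run can thus be told apart only through TBI+PMI-006 3. With the run as a term, the fit sets the TBI+JM6 rats against this single rat. The differences of Slc43a1, A_64_P073048 and the called Mcm4 probe were then 1.33, 1.54 and 2.97.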

How the data were processed

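The authors' intensity values, per the file headers, came from Agilent Feature Extraction 9.5.3.1, background-subtracted and not scaled between arrays. The deposited matrix of the authors, a ratio to an array percentile, served as an alternative. Positions are rn4, and symbols came from the files and a RefSeq table (68.1% of probes). After outlier spots were dropped, spots of a probe were averaged, scaled to the 75th percentile described above and put on the log2 scale. A probe was tested if all arrays of any group had it well above background. limma 3.58.1 in R 4.3.3 fitted all 16 arrays together (10 residual degrees of freedom), and the script was tested on simulated data. A gene was read on its tested probe of highest mean. Named were the called probes, the 5 genes of lowest p in each direction (in place of the 12 largest changes called under both scalings, of which there were 0), the kynurenine genes, and up to 4 members of lowest p in a list. Other genes (Grin1, Grin2a, Aif1, Fcrl2, Foxj1, Neurod6, Prox1, Folr1, Fos, Arc) were added after their values were seen. The members and lists were chosen with earlier results of these data known. The number of arrays limits the precision, and 0 pairs of arrays held identical values.

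Alternatives were quantile normalization, the percentile over all probes, E1A spike-in scaling, normexp (offset 50), other filters, the authors' matrix, the methods' t-test (with its 1.2-fold limit, and adjusted), Welch's t-test, fewer arrays, slide or replicate blocks, array weights, fold limits, averaged probes, and each rat left out. The sample-number term, combinations with quantile normalization, and leaving out 2 rats together were chosen after seeing the data.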

Additional observations from a re-analysis of the deposited data

How the results depend on the processing

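The 3 probes called higher and 0 called lower depended on the processing. After quantile normalization, with the 75th percentile over all probes, with a normexp background correction, with the authors' matrix, with probes well above background on all 6 arrays, with limma on the 6 arrays or on the 8 drug arrays, and with the methods' or Welch's t-test after adjustment, 0 were called higher and 0 lower. At an unadjusted p under 0.05 these alternatives gave 960 to 2261 higher and 50 to 843 lower. The normexp correction moved the median of all probes to 0.54. E1A spike-in scaling left 1 higher (Mcm4), and no filter on dim probes gave 7 higher and 2 lower. Array weights gave 633 higher and 65 lower. The methods' t-test without adjustment passed 1479 higher and 75 lower. The slide as a random block kept the same 3. The slide as a fixed block gave 3 higher and 0 lower, none of them the 3 called otherwise: Adam30, A_44_P367952 and A_64_P102812, which rest on TBI+JM6 1 as the only rat of its group on that slide. With quantile normalization and the slide as a block, 5 were higher, Rbm7 and A_64_P087519 added. With each rat left out, counts ran from 0 to 37 higher and 0 to 7 lower. They were 0 and 0 without TBI+PMI-006 1, 4 and 0 without TBI+PMI-006 2, 37 and 7 without TBI+PMI-006 3, 13 and 2 without TBI+JM6 1, 3 and 0 without TBI+JM6 2, and 6 and 4 without TBI+JM6 3. Under quantile normalization with each rat left out they ran from 0 to 66 higher and 0 to 15 lower. Without TBI+PMI-006 1 and TBI+JM6 3 together, 5 were higher and 3 lower. The sample-number term gave 10 and 1, and 2 and 2 after quantile normalization. The cause of these changes was not tested, apart from the smaller number of rats or probes where an alternative has that by construction.

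The replicate number as a block gave 0 higher and 0 lower with limma (1262 and 143 at an unadjusted p under 0.05). The numbers did not pair the rats: deviations of same-numbered rats from their group means correlated at -0.19, 0.03 and -0.18. Slc43a1, the called Mcm4 probe and A_64_P073048 kept their direction under every alternative that tested them. The filter for probes above background on all 6 arrays leaves all 3 out. No result called changed sign.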
